A study of Mus musculus with 3 samples.

Results

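In the anagen hair follicle of mouse skin, a small population of keratinocytes carries the type II keratin Krt75, and these Krt75 cells are described here. The cells were chosen by the UMIs of 9 genes in each cell, where a UMI (unique molecular identifier) is 1 captured transcript. A barcode was a member with at least 2 UMIs of Krt75, a UMI of at least 3 of the 5 genes Fabp4, Sct, Tchh, Csta1 and Aldh1a3, at most 2 UMIs each of Krt71 and Krt35, and none of the leukocyte gene Ptprc. By this rule 403 of 26847 kept barcodes were members, with 94 of 6582 in Neg, 118 of 10433 in AA and 191 of 9832 in AA+Ab. The values of these 9 genes chose the members, so their levels below are descriptions.

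Droplet-based scRNA-seq was performed on digested dorsal skin of female C3H/HeN mice at 25 weeks of age, with 1 library for each of 3 groups. Neg was the negative (vehicle) control group. AA was the model of alopecia areata (AA), an autoimmune hair loss that in these mice follows transfer of cultured skin-draining lymph node cells. AA+Ab was the AA model given an antibody that neutralizes the chemokine CXCL12. The authors state pools of 7 to 8 mice for the control and AA groups, and their paper does not describe the AA+Ab group. Group and library cannot be told apart with 1 library per group, so no test was possible and every interval covers counting error only. The AA library enters both AA comparisons and the Neg library both comparisons with Neg.

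The hair shaft has 3 concentric parts, the medulla at its core, the cortex and the cuticle, and the inner root sheath surrounds it. The companion layer is a single sheet of flat cells between the inner and the outer root sheath. Krt75 is made in the companion layer and also in the medulla. Medulla cells and inner root sheath cells fill with granules of trichohyalin, the product of Tchh, which peptidylarginine deiminases such as Padi3 modify and transglutaminases cross-link. The transcription factors Foxq1 and Hoxc13 act in medulla differentiation, and mice without Foxq1 have a defective medulla that gives the coat its satin sheen.

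The genes of the rule are spread over the genome and are given in GRCm38 coordinates. Krt75 lies on the minus strand of chr15:101563345-101573904, in a keratin gene cluster. Fabp4, a fatty acid binding protein best known from adipocytes, lies on the minus strand of chr3:10204088-10208576. Sct, the hormone secretin, lies on the minus strand of chr7:141278330-141279133. Tchh lies on the plus strand of chr3:93442330-93449077, in the epidermal differentiation complex. Csta1, a stefin that inhibits cysteine proteases, lies on the minus strand of chr16:36119946-36131241, and Aldh1a3, an enzyme that makes retinoic acid, on the minus strand of chr7:66390890-66427517.

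The 250 bases before the RefSeq start of the 3 rule genes whose RefSeq entry was matched are shown (GRCm38.p6, transcribed strand, 5′ to 3′). The rule picked cells that hold several of these genes, so their presence in the same cells is no finding. Krt75 is chr15:101573905-101574154 (minus), Sct chr7:141279134-141279383 (minus) and Tchh chr3:93442080-93442329 (plus). Capitals mark the motifs searched on both strands, which were the TATA box TATAAA, the forkhead core TGTTTA and the LEF/TCF core CTTTGA.
Krt75: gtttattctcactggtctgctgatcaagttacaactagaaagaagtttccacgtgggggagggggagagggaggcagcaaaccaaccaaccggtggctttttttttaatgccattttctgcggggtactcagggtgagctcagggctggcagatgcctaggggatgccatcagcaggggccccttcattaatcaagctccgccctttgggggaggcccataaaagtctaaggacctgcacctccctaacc
Sct: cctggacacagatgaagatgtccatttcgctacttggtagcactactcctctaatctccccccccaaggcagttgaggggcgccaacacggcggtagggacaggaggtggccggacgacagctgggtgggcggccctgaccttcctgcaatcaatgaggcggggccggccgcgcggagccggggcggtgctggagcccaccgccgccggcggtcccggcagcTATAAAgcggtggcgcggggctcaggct
Tchh: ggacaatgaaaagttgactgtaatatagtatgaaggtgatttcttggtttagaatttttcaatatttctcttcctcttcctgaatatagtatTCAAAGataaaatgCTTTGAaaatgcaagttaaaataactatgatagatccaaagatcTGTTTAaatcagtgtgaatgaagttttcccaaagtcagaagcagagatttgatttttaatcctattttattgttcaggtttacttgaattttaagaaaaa
Counting back from the start, Sct held TATAAA at -28 to -23, and Tchh held TGTTTA at -100 to -95 and CTTTGA at -144 to -139 and, on the other strand, at -158 to -153. None of the 3 letter strings occurred in the Krt75 window, and no motif was shared among the 3. Of 32851 promoter windows of the same length, 12.4% held TATAAA, 12% held TGTTTA and 13.8% held CTTTGA, so a match in 1 of 3 windows is a description of these letters.

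The sequenced libraries held 121289374, 137290217 and 141998364 UMIs in Neg, AA and AA+Ab, and kept barcodes had median UMI counts of 13694.5, 11177 and 11371. Krt75 cells were deeper than the average barcode, with medians of 22929, 20308 and 19089 UMIs and 4880.5, 4648 and 4397 genes. Their median mitochondrial share was 3.71% in Neg, 2.87% in AA and 2.11% in AA+Ab, in the same order as the 2.35%, 2.17% and 1.81% of all kept barcodes. A doublet caller took 14 of 94, 13 of 118 and 17 of 191 Krt75 cells as 2 cells in 1 droplet. Kept barcodes of different libraries shared 14 to 23 barcode sequences per pair, and no sequence was a member in more than 1 library.

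Within the rule, Krt75 was counted at 606 CPM (a gene's count per 1000000 summed UMIs of the members) in Neg, 597 in AA and 723 in AA+Ab, with median counts of 9.5, 9 and 11 UMIs per cell and highest counts of 137, 138 and 123. Aldh1a3 was seen in 97.9%, 100% and 95.8% of Krt75 cells, and the least often seen gene, Tchh, in 76.6%, 82.2% and 74.3%. All 5 genes were seen together in 192 of 403 cells, which were 43, 64 and 85 cells by library. Just inside the rule, 8, 9 and 13 cells had exactly 2 Krt75 UMIs, and just outside 12, 14 and 12 cells met everything else with 1. Foxq1, which the rule does not use, was seen in 87.5%, 100% and 92.3% of the cells just inside and in 50%, 50% and 58.3% of those just outside. Its level was 46.1, 97.2 and 231 CPM inside and 35.8, 135 and 94.5 CPM outside, and the inside cells were the deeper ones in Neg and AA and the shallower in AA+Ab, with medians of 42012.5, 18915 and 11933 UMIs against 17757, 16628.5 and 25744.5. Exactly 3 of the 5 genes were seen in 22, 23 and 49 members, and 34, 23 and 44 cells stopped at 2 genes.

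The proposed name of these cells, companion layer and medulla-like, was checked against markers of both. Medulla markers that the rule does not use were found in most Krt75 cells. Foxq1 had a UMI in 92.6% of Neg, 99.2% of AA and 99.5% of AA+Ab cells, Hoxc13 in 92.6%, 94.9% and 96.9%, and Padi3 in 81.9%, 88.1% and 90.1%. In T cells, which should lack them and had medians of 5680, 4533.5 and 4638 UMIs, Foxq1 was seen in 7.62%, 2.94% and 7.05%, Hoxc13 in 4.48%, 3.74% and 5.96% and Padi3 in 0.897%, 0.535% and 2.17%. Companion layer keratins other than Krt75 and Krt17 were sparse. Krt6a, the usual partner marker of the companion layer, was seen in 6 of 94, 3 of 118 and 3 of 191 cells, Krt6b in 0, 0 and 1 cell, and Krt16 in 11.7%, 24.6% and 12.0%. Krt17, which many follicle keratinocytes share, was seen in 100%, 100% and 99.5%, against 24.7%, 17.9% and 22% of T cells. The data therefore go against the companion layer in the name, and the cells are called Krt75 cells here.

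**Figure D1:**
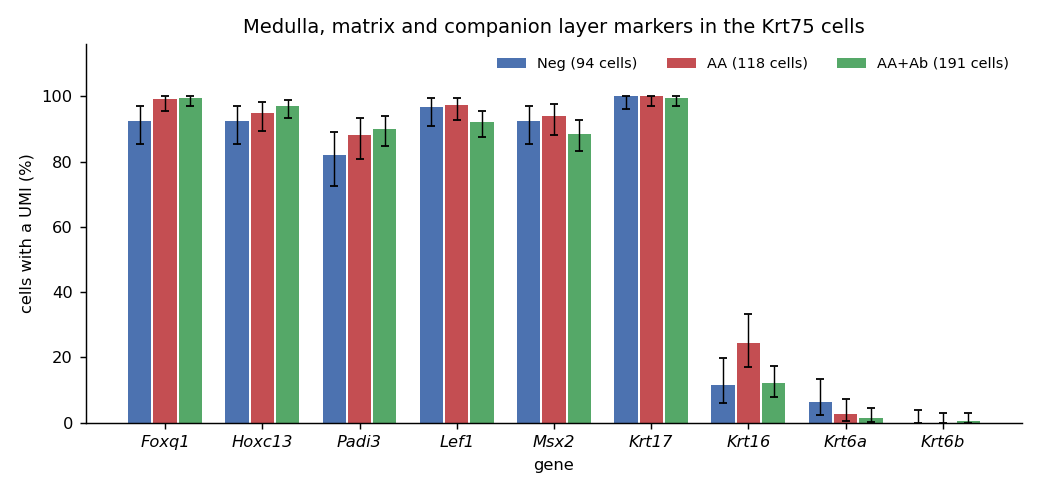
Share of Krt75 cells with at least 1 UMI (vertical axis, %) of medulla (Foxq1, Hoxc13, Padi3), matrix (Lef1, Msx2) and companion layer (Krt17, Krt16, Krt6a, Krt6b) markers in Neg (94 cells), AA (118) and AA+Ab (191); bars are shares and lines are exact 95% binomial intervals. Medulla markers stand between 81.9% and 99.5%, while Krt6a stays at 6.38% or less.

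The genes that set the Krt75 cells apart from all other barcodes were ordered by the smallest of their 3 within-library ratios, with 5 CPM added to each level. Foxq1 was measured at 335, 394 and 650 CPM in Krt75 cells of Neg, AA and AA+Ab, against 16.3 to 26.2 CPM in all other barcodes. Padi3, which converts arginine to citrulline in trichohyalin, stood at 162, 229 and 231 CPM against 2.92 to 4.10. Tgm6, a transglutaminase, stood at 80.6, 94.6 and 155 CPM against 1.29 to 1.68. In all 3 libraries the pooled Krt75 cells thus held transcripts of both kinds of enzyme. Over single cells the rank correlation of Padi3 with Tchh was 0.049 in Neg, 0.33 in AA and 0.27 in AA+Ab.

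Soat1 and Sptssb headed the ranking. Soat1, which esterifies cholesterol, was measured at 439, 460 and 560 CPM against 6.80 to 7.55 in the other barcodes, and Sptssb, a small subunit of serine palmitoyltransferase, at 220, 209 and 246 CPM against 0.678 to 0.930. B4galt6, which makes lactosylceramide, stood at 66.0, 69.2 and 134 CPM. Adh6b, an alcohol dehydrogenase, was measured at 239, 205 and 340 CPM.

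Kitl and Gpnmb were also among the leading genes. Kitl encodes the ligand of the receptor KIT, on which melanocytes depend, and was measured at 1547, 2040 and 2279 CPM. The inner root sheath comparator, which were the 770 cells with at least 3 Krt71 UMIs, had 19.9 to 32.8 CPM of Kitl, and the hair shaft comparator, the 913 cells with at least 3 Krt35 UMIs, had 182 to 291 CPM. Gpnmb, a melanosome and lysosome glycoprotein, was measured at 1626, 1995 and 2240 CPM against 13.5 to 24.7 in the inner root sheath and 123 to 206 in the hair shaft comparator. Both genes were higher in Krt75 cells in 3 of 3 libraries, by at least 2.79 on the log2 scale.

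Other leading genes were regulators. Gli3, a transcription factor of hedgehog signalling, was measured at 1136, 1739 and 1367 CPM against 93.7 to 107 in the other barcodes, Prdm1, a repressor of transcription in several skin lineages, at 96.7, 168 and 171 CPM and Zfhx3 at 263, 310 and 256 CPM. S100a3, a calcium-binding protein of the hair cuticle, stood at 423, 470 and 672 CPM against 102 to 160 in the hair shaft comparator. The keratin-associated protein gene Krtap15 stood at 97.8, 184 and 123 CPM, and the keratins Krt23 and Krt90 at 249, 325 and 264 CPM and at 74.4, 90.7 and 68.5 CPM.

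**Figure D2:**
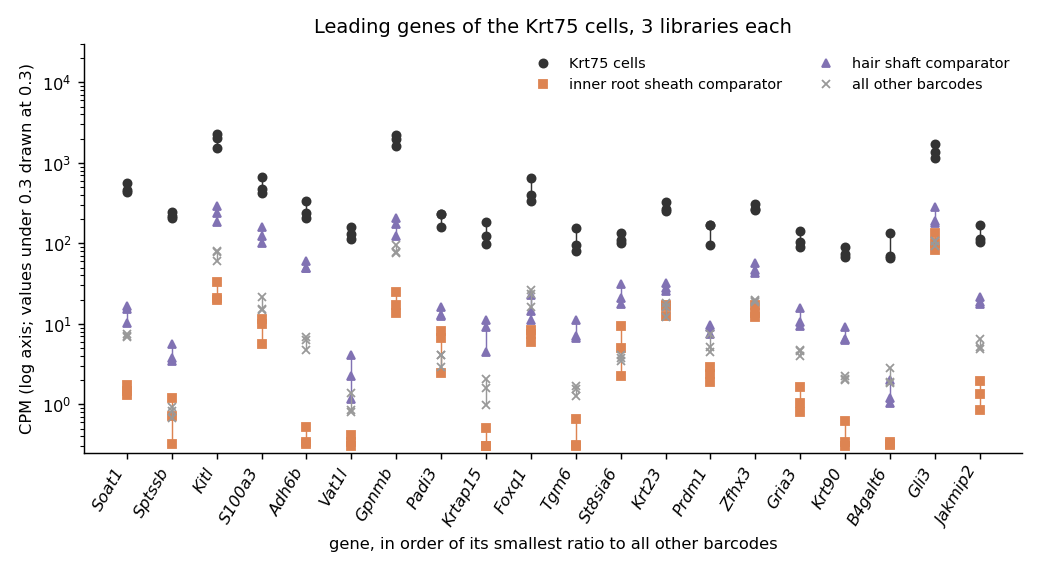
Levels (CPM, log axis, values under 0.3 drawn at 0.3) of the 20 leading genes in Krt75 cells, inner root sheath comparator cells, hair shaft comparator cells and all other barcodes, with 1 point per library and a line over the range of the 3. In every gene the 3 Krt75 points lie above all points of the other cells.

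Against the comparator cells, the transcription factors Hoxc13 and Lef1 differed. Hoxc13 was measured at 229, 333 and 392 CPM in Krt75 cells and at 259, 308 and 300 CPM in the hair shaft comparator, but at 15.7 to 19.2 CPM in the inner root sheath comparator. Lef1, the effector of WNT signalling in the hair matrix, gave 558, 786 and 698 CPM in Krt75 cells and 709, 1029 and 726 CPM in the hair shaft, against 111 to 160 CPM in the inner root sheath. Krt75 cells and hair shaft comparator cells were within 2-fold of each other for both genes, and inner root sheath comparator cells had less in each library. The latter were chosen by Krt71 counts, and they were not shown to be inner root sheath cells. Tchh, which helped choose the members, stood at 1669, 1897 and 2394 CPM in Krt75 cells, at 189, 181 and 46.2 CPM in the inner root sheath and at 30.1, 57.3 and 34.8 CPM in the hair shaft comparator. Low Krt71 and low Krt35 are conditions of the rule and are no finding.

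Genes of the retinoid, WNT and Notch pathways were seen in these cells, and no background share from other cells is set beside their values. Beside Aldh1a3, Stra6, a receptor through which cells take up retinol, was seen in 70.2%, 74.6% and 82.7% of cells. The other synthesising enzyme Aldh1a2 was seen in 1.06%, 1.69% and 0.524%. Of WNT ligands, Wnt3 was seen in 59.6%, 60.2% and 62.8% and Wnt5a at 55.7, 61.8 and 105 CPM. The Notch ligands Jag1 and Jag2 were seen in 73.4%, 83.1% and 74.9% and in 89.4%, 88.1% and 83.2% of cells. The secretin receptor gene Sctr, by contrast with its ligand, had 1 UMI in Neg and none in AA or AA+Ab.

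The Krt75 cells were not uniform, and clustering of the 403 cells on all genes gave 5 sub-clusters, numbered 0 to 4, which are described and not tested. Sub-cluster 3 (79 cells) had the highest levels of the granule genes, with 6284 CPM of Tchh, 2744 of Csta1, 1059 of Sct, 1502 of Krt75 and 1003 of Foxq1, and was led by Adh6b, S100a8, the cathepsin Ctsh and the envelope gene Ivl. Sub-cluster 2 (70 cells) was led by the mitotic genes Ube2c, Cenpf and Ccnb1, with Mki67 in 98.6% of cells, and had 455 CPM of Tchh, 96.7 of Csta1 and 135 of Sct. Sub-cluster 0 (156 cells) had 1793 CPM of Tchh, the highest Aldh1a3 level of the 5, at 1322 CPM, and 2612 CPM of Fabp4, and was led by Adamtsl1 and Socs2. Sub-cluster 4 (45 cells) was led by genes that included Cpm and Krtap13-1, with 1022 CPM of Lef1 and 946 of Fabp4. Mki67 was lowest in sub-cluster 3, at 8.18 CPM, and highest in sub-cluster 2, at 464 CPM, and Tchh was the reverse.

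Sub-cluster 1 (53 cells) carried markers of other cells. It had 3877 CPM of Krt14 and 1849 of Krt5, the basal and outer root sheath keratins, and among its genes 4 outer root sheath, 3 interfollicular epidermis and 3 melanocyte markers. The skeletal muscle actin Acta1 stood at 805 CPM and was seen in 49.1% of its cells. Most of that level came from 1 Neg cell, which held 1558 of the 1611 Acta1 UMIs of Neg. The median UMI count of sub-cluster 1, 32427, was the highest of the 5. Of its 53 cells, 43 (81.1%) were taken as doublets, which was nearly all of the 44 doublet calls among the 403 cells. It held 19 of 94 Neg, 17 of 118 AA and 17 of 191 AA+Ab cells and is called the mixed sub-cluster. That name was given where at least 3 of the interfollicular epidermis markers Krt1, Krt10, Lor and Krtdap marked a sub-cluster. Lower levels of these genes without it therefore follow in part from how it was chosen. Counts and lists between libraries are therefore given with all Krt75 cells and without it, a choice made after these data were seen, and levels of single genes are over all Krt75 cells unless said otherwise.

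**Figure D3:**
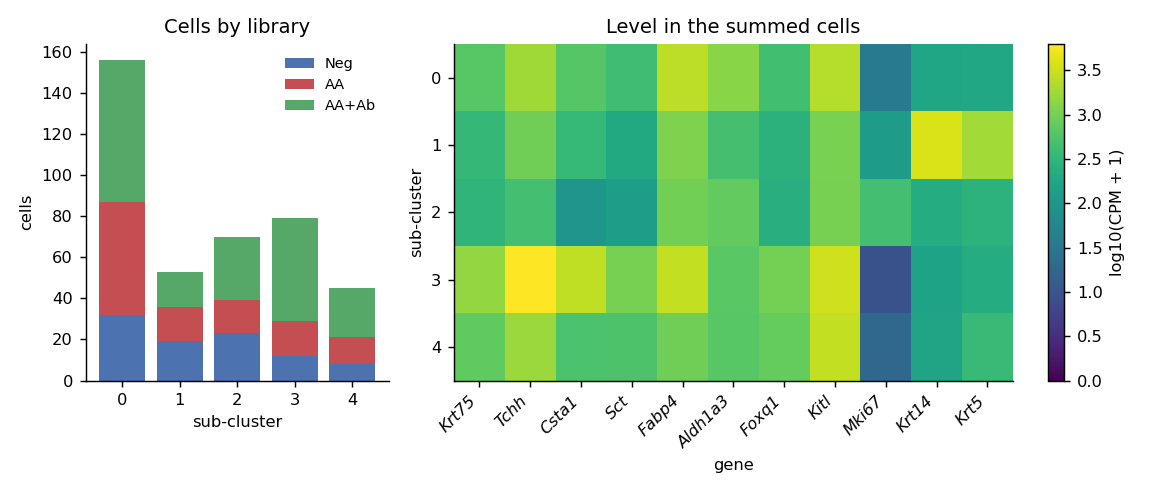
Left, cells of each sub-cluster by library (stacked bars, number of cells); right, level of 11 genes in the summed cells of each sub-cluster as log10(CPM + 1). Mki67 is brightest in sub-cluster 2, Tchh and Csta1 in sub-cluster 3, and Krt14 and Krt5 in sub-cluster 1.

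Krt75 cells with many UMIs of G2/M genes had lower levels of several rule genes than the rest. Krt75 cells with at least 10 UMIs of 20 G2/M genes were 53 of 94 in Neg (56.4%, exact 95% interval 45.8 to 66.6), 45 of 118 in AA (38.1%, 29.4 to 47.5) and 62 of 191 in AA+Ab (32.5%, 25.9 to 39.6). These cells, called dividing below, were deeper, with medians of 31098, 29902 and 29921 UMIs against 18315, 18543 and 16562 in the rest. The limit is a raw count, which deeper cells reach more easily. When every cell was thinned to 5000 UMIs, Mki67 was seen in 33.0%, 22.2% and 20.1% of the Krt75 cells, in the same order as unthinned (50%, 44.9% and 33.5%). The level of Mki67 over the summed cells did not follow that order, with 134, 128 and 160 CPM, so no order of division between libraries is read from the shares.

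In the dividing cells Csta1 stood at 491, 398 and 233 CPM against 1796, 800 and 1351 CPM in the rest. Sct stood at 201, 266 and 234 CPM against 723, 550 and 704 CPM. Tchh stood at 1029, 1455 and 475 CPM against 3035, 2370 and 4003 CPM. The difference was small for Aldh1a3, with 875, 780 and 816 CPM in dividing cells against 923, 1072 and 777 CPM, and, in AA, for Fabp4, with 2075, 1941 and 653 CPM against 3544, 2160 and 1658 CPM. Over cells, the rank correlation of Krt75 with the summed G2/M genes was -0.50, -0.58 and -0.53 in Neg, AA and AA+Ab, and with total UMIs -0.17, -0.32 and -0.29. Krt75 followed Csta1 with 0.78, 0.62 and 0.66 and Foxq1 with 0.72, 0.67 and 0.54. Tchh and Fabp4 were paired with 0.61, 0.61 and 0.62. These are descriptions over 94, 118 and 191 cells that share a library and differ in depth. All of these genes but Foxq1 and the G2/M genes also chose the cells. The rule uses raw counts, so a shallower cell passes it only at a higher CPM of the rule genes. How far the contrasts and correlations follow from the rule and from depth was not tested. The mixed sub-cluster described above was left in. Krt14 stood at 1734, 1020 and 581 CPM in dividing cells against 694, 788 and 710 CPM in the rest. How far cells of the mixed sub-cluster share in these contrasts was not tested.

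The share of Krt75 cells was 1.43% of kept barcodes in Neg (exact 95% interval 1.16 to 1.74), 1.13% in AA (0.937 to 1.35) and 1.94% in AA+Ab (1.68 to 2.24). On the log2 scale AA was 0.34 below Neg, with an interval of -0.74 to 0.07 that includes no difference, AA+Ab was 0.78 above AA (0.44 to 1.12) and 0.44 above Neg (0.08 to 0.82). Relative to the comparator cells, which were chosen by Krt71 or Krt35 counts, the order differed. Krt75 cells were 14.4% (11.8 to 17.4), 18.6% (15.6 to 21.8) and 23.9% (21.0 to 27.1) of the Krt75, inner root sheath and hair shaft cells together, so that per inner root sheath or hair shaft cell AA was 0.44 above Neg on the log2 scale (0.03 to 0.84) and AA+Ab 0.47 above AA (0.13 to 0.81). The inner root sheath comparator counted 296 cells in Neg, 236 in AA and 238 in AA+Ab, and the hair shaft comparator counted 262, 282 and 369 cells.

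The shares without the mixed sub-cluster were 1.14%, 0.968% and 1.77%, and with doublet calls removed from all barcodes they were 1.29%, 1.10% and 1.93%. Thinned to 5000 UMIs per cell, they were 0.921%, 0.808% and 1.36%, after 720, 1395 and 1456 shallower barcodes were left out. AA+Ab was highest and AA lowest in each of these counts. With a mitochondrial limit of 5%, the log2 ratio of AA against Neg was 0.020. Shares depend on how many cells of every kind were freed from the skin and caught, and on 1 library per group.

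**Figure D4:**
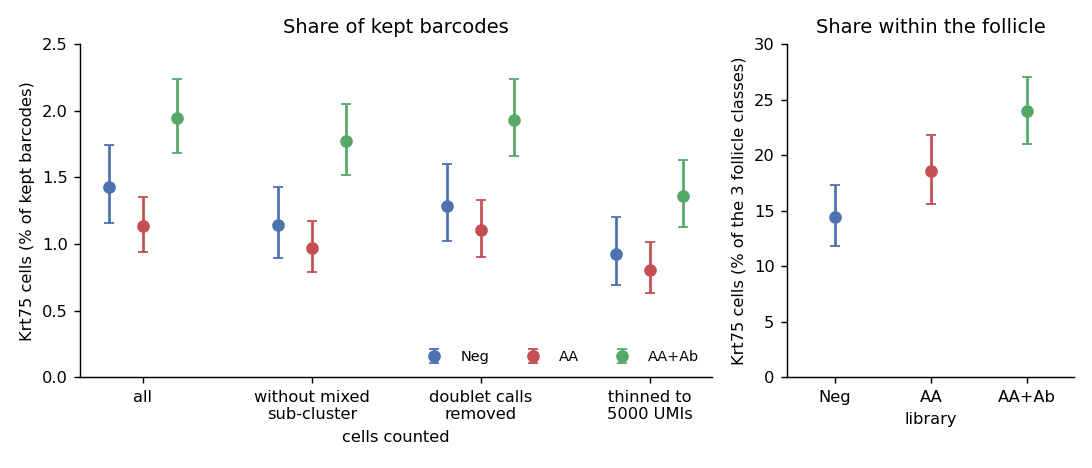
Left, Krt75 cells as a share of kept barcodes (%) in each library for all cells, without the mixed sub-cluster, with doublet calls removed and after thinning; right, their share (%) of the Krt75, inner root sheath and hair shaft cells. Points are shares and lines are exact 95% binomial intervals (counting error only); AA+Ab is highest in every set, and AA is below Neg on the left and above it on the right.

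Between libraries, most genes of the Krt75 cells differed little. Of 10707 genes with at least 10 UMIs expected in the smallest of the 3 pools, 168 (1.57%) were at least 2-fold higher and 385 (3.6%) at least 2-fold lower in AA than in Neg, 193 (1.8%) and 458 (4.28%) in AA+Ab than in AA, and 163 (1.52%) and 652 (6.09%) in AA+Ab than in Neg. The median log2 ratio over all genes was 0.05, -0.04 and 0.00. When the mixed sub-cluster was left out, 9652 genes could be compared, of which 202, 245 and 248 were at least 2-fold lower and 198, 151 and 186 higher. Among 4090 genes seen in at least 50% of cells, 4 were higher and 5 lower in AA than in Neg, 4 and 25 in AA+Ab than in AA and 7 and 31 in AA+Ab than in Neg.

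The genes with the highest and lowest interval bounds were mostly genes of 1 cell. Of 60 picks from the 3 comparisons (44 genes), 47 had more than 50% of the UMIs of the higher library in 1 cell, and 26 stayed at least 2-fold apart without the mixed sub-cluster, with doublet calls removed and without the top cell of each gene. Over all genes past 2-fold, 80.2% to 95.1% per comparison and direction stayed past it without their top cell. The muscle genes Acta1, Ckm, Tnnc2, Tnnt3, Mylpf and Tnni2 had 5409 UMIs in Neg, 110 in AA and 142 in AA+Ab, and 5215 of the 5409 lay in 1 Neg cell. Melanocyte markers had 1566, 490 and 661 UMIs, 738 of them in 1 Neg cell, and epidermal differentiation genes 3691, 845 and 2403, with 1686 in 1 Neg cell. Dct, an enzyme of melanin synthesis, went from 205, 93.9 and 87.9 CPM to 83.7, 86.5 and 93.0 CPM without the mixed sub-cluster, and Krt10, of the upper epidermis, from 433, 58.9 and 119 CPM to 51.7, 48.5 and 41.8 CPM. Krt10 is among the markers that define the mixed sub-cluster, so its fall follows in part from that choice.

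The markers of the medulla and of trichohyalin granules were close between libraries. None of the 6 tested was 2-fold apart in any comparison, and their median log2 ratio was 0.21 in AA against Neg, 0.30 in AA+Ab against AA and 0.52 in AA+Ab against Neg. It was -0.11, 0.32 and 0.27 without the mixed sub-cluster. Foxq1 was the member nearest to 2-fold, 0.96 above Neg in AA+Ab on the log2 scale and 0.70 without the mixed sub-cluster. Of the 5 transglutaminase and deiminase genes tested, none was 2-fold apart, with medians of 0.23, 0.51 and 0.51. Of 16 hair differentiation transcription factors, none was 2-fold higher. In AA against Neg 2 were lower (all genes 3.6%), and in AA+Ab against Neg 2 were lower (all genes 6.09%). Gata3, an inner root sheath factor, was among them at 64.5, 27.2 and 20.4 CPM, and without the mixed sub-cluster it stood at 8.79, 7.40 and 6.29 CPM and none of 14 was 2-fold apart.

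Among Krt75 and the 5 genes that the rule asks for, Fabp4 differed most between libraries. It stood at 2544 CPM in Neg, 2047 in AA and 1200 in AA+Ab, with median counts of 30, 21.5 and 5 UMIs per cell, and AA+Ab was 1.08 below Neg on the log2 scale, or 1.44 below without the mixed sub-cluster. Fabp4 did not stay 2-fold lower both with doublet calls removed and without its top cells. In Neg, 1 cell held 1086 of its 6941 UMIs. The share of cells with a Fabp4 UMI was 79.8%, 84.7% and 76.4%. In the hair shaft comparator Fabp4 stood at 70.2, 69.2 and 47.0 CPM. Fabp5, the epidermal relative, stood at 2990, 2501 and 2032 CPM in the Krt75 cells.

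Stefin genes, relatives of Csta1, were also unlike between libraries. Stfa2 had 198, 100 and 36 UMIs in 34, 31 and 15 cells, which was 72.6, 35.3 and 8.62 CPM, and its log2 ratio was -1.04 in AA against Neg and -3.07 in AA+Ab against Neg. Stfa3 stood at 8.80, 3.18 and 11.5 CPM and Csta1 at 907, 592 and 842 CPM. Of 6 stefin and cystatin genes tested, 3 were at least 2-fold lower in AA than in Neg (median -0.83), where 3.6% of all genes were, and 3 of 6 without the mixed sub-cluster (median -1.08), where 2.09% were. The 3 were Stfa2, Stfa3 and Cst6. Stefin genes are near-identical copies, and reads that match several copies may not be counted, so values of single copies are uncertain.

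Interferon-response genes were higher in the AA library than in both others. Of 9 genes tested, 5 were at least 2-fold higher and 1 lower in AA than in Neg (median log2 ratio 1.24), where 1.57% of all genes were higher and 3.6% lower. In AA+Ab against AA, 6 were at least 2-fold lower (median -1.45), where 4.28% of all genes were, and the median of AA+Ab against Neg was -0.11. Isg15, a ubiquitin-like interferon product, had 4 UMIs in 4 Neg cells, 35 in 20 AA cells and 6 in 5 AA+Ab cells. The transcription factor Irf1 stood at 10.6, 26.8 and 9.82 CPM and Irf9, of the same family, at 6.60, 15.5 and 8.14 CPM. AA was the highest of the 3 libraries for each of these genes. Part of the AA value came from few cells, since 37 of 51 UMIs of Ifi27l2a lay in 1 cell. The filter for testing takes the mean of the 3 libraries, so genes high in AA alone could pass, as Isg15 and Ifi27l2a did. The counts of genes apart therefore partly follow from the filter and are descriptions.

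Outside the mixed sub-cluster, 6 interferon-response genes passed the same filter. Of these, 3 were at least 2-fold higher in AA than in Neg (median 1.02, all genes 2.05%). In AA+Ab against AA 5 were at least 2-fold lower (median -1.08, all genes 2.54%). Irf1 was then 5.69, 23.1 and 6.29 CPM and Isg15 1.03, 12.0 and 0.820 CPM. AA was also the highest library in all other kept barcodes, where Isg15 stood at 8.54, 21.6 and 8.63 CPM. In the hair shaft comparator Isg15 stood at 10.1, 18.3 and 2.53 CPM. A pattern of the whole library and a pattern of Krt75 cells cannot be told apart here, and part of a low count can come from free RNA in the droplets, which was not tested.

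MHC class I genes changed their order with the mixed sub-cluster. With all cells, 7 of 14 genes tested were at least 2-fold lower in AA+Ab than in Neg (median -0.997), where 6.09% of all genes were. In AA+Ab against AA 5 were lower (median -0.87, all genes 4.28%), and in AA against Neg 1 was (median -0.25, all genes 3.6%). H2-K1, a class I heavy chain, stood at 189, 156 and 83.8 CPM and B2m, the light chain, at 188, 183 and 120 CPM. Without the mixed sub-cluster, H2-K1 stood at 42.4, 56.4 and 32.5 CPM and B2m at 46.5, 85.5 and 56.1 CPM. Of the 6 genes that could then be tested, 1 was at least 2-fold lower in AA+Ab than in AA (all genes 2.54%). None was in either other comparison. The medians were 0.70 in AA against Neg, -0.51 in AA+Ab against AA and 0.25 in AA+Ab against Neg. H2-K1 and B2m were highest in Neg with all cells and in AA without the mixed sub-cluster. Of the NKG2D ligand and IL-15 genes, 9 of 12 were in the files and none reached the level needed for a ratio. Cxcl12 itself had 19, 22 and 12 UMIs, and its receptor Cxcr4 1, 0 and 0.

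Heat shock and immediate early genes were lowest in AA+Ab. Hspa1a, an inducible chaperone, stood at 614, 630 and 271 CPM, Hsph1 at 83.2, 174 and 47.2 CPM and Dnajb1 at 259, 381 and 140 CPM. The nuclear receptor Nr4a1 stood at 177, 185 and 71.9 CPM. Of 17 genes known to respond to cell dissociation, 3 were at least 2-fold lower in AA+Ab than in AA (median -0.68, all genes 4.28%) and 3 in AA+Ab than in Neg (median -0.55, all genes 6.09%), and none was 2-fold apart between AA and Neg (median -0.09). In the same order of comparisons, and without the mixed sub-cluster, the medians were -0.48, -0.66 and -0.25. Hspa1a was also lowest in AA+Ab in the inner root sheath (831, 841 and 314 CPM), in the hair shaft (863, 921 and 310 CPM) and in all other kept barcodes (607, 530.5 and 257 CPM), so the order was not particular to Krt75 cells. How each skin sample was handled was not tested.

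A smaller group of genes was highest in AA+Ab. Ptn, the heparin-binding growth factor pleiotrophin, had 297 UMIs in 65 Neg cells, 603 in 86 AA cells and 1619 in 143 AA+Ab cells, or 109, 213 and 388 CPM, a log2 ratio of 1.83 in AA+Ab against Neg (2.07 without the mixed sub-cluster). Ptn was also highest in AA+Ab in the hair shaft comparator, at 287, 361 and 585 CPM. Krtap8-1, a hair keratin-associated protein, was seen in 33, 57 and 135 cells at 96.7, 167 and 295 CPM, and in the hair shaft comparator at 33.4, 18.8 and 106 CPM. Gjb6, a gap junction protein, stood at 25.7, 26.8 and 72.8 CPM with 24.0, 25.2 and 27.0 CPM in the inner root sheath comparator. Col13a1, a transmembrane collagen, was seen in 4, 18 and 49 cells, and Hoxd8 in 9, 16 and 45 cells. Fzd10, a WNT receptor, had 35, 50 and 122 UMIs in 24, 32 and 70 cells.

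Several leading genes of sub-cluster 3, of whose 79 cells 50 are in AA+Ab, were highest in AA+Ab, but Csta1 and Fabp4, which were also highest in that sub-cluster, were highest in Neg. Ivl, involucrin, stood at 91.6, 91.8 and 189 CPM, Tchhl1 at 57.9, 44.5 and 109 CPM, Ctsh at 52.0, 40.6 and 87.7 CPM and S100a8 at 27.5, 13.8 and 50.8 CPM, and AA+Ab was also highest for these 4 genes without the mixed sub-cluster. In the whole pool, a larger share of such cells and more of each transcript per cell give the same value. Of 8 epidermal differentiation genes tested, 6 were at least 2-fold lower in AA than in Neg (median -2.07, all genes 3.6%), and 1 of 7 without the mixed sub-cluster (median -0.09, all genes 2.09%). Krt1, Krt10, Lor and Krtdap of this list define that sub-cluster, so the change follows in part from leaving it out.

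Lower in AA+Ab were Notch1, at 42.5, 26.1 and 7.90 CPM (16.5, 15.3 and 4.10 CPM without the mixed sub-cluster), and Aldh1a1, the retinal dehydrogenase related to Aldh1a3, at 11.7, 15.2 and 4.31 CPM (12.9, 16.2 and 4.92 CPM). In the hair shaft comparator the 3 values of Notch1 lay closer together, at 268, 278 and 228 CPM. Of 13 retinoid pathway genes tested, 1 was at least 2-fold lower in AA than in Neg, 1 in AA+Ab than in AA and 2 in AA+Ab than in Neg, where 3.6%, 4.28% and 6.09% of all genes were, with medians of 0.14, -0.22 and -0.09. When the mixed sub-cluster was left out, the numbers were 0, 1 and 1, where 2.09%, 2.54% and 2.57% of all genes were lower. Of 24 WNT, BMP, SHH, Notch and FGF genes tested, 3 were at least 2-fold higher and 2 lower in AA+Ab than in Neg, where 1.52% of all genes were higher and 6.09% lower, with a median of 0.08. That became 1 higher and 1 lower of 21 when the mixed sub-cluster was left out (all genes 1.93% higher and 2.57% lower). The cell adhesion gene Cadm1 was highest in AA, at 96.0, 209 and 78.8 CPM, a log2 ratio of 1.12 against Neg that was 1.14 without the mixed sub-cluster, and the scaffold gene Grip1 was 154, 281 and 105 CPM. Trps1, a repressor mutated in a syndrome with sparse hair, stood at 340, 480 and 262 CPM.

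**Figure D5:**
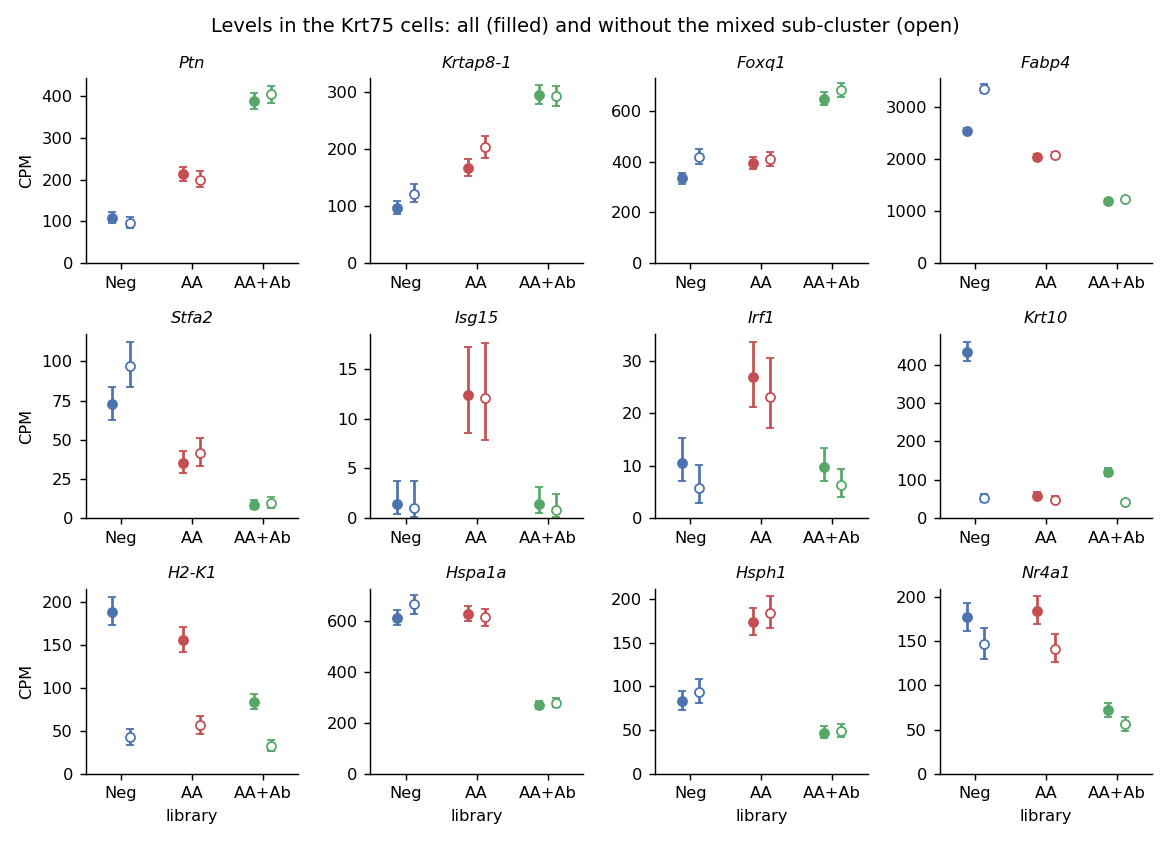
Level (CPM, linear axes from 0) of 12 genes in the Krt75 cells of Neg, AA and AA+Ab, with all cells as filled and without the mixed sub-cluster as open points; lines are exact 95% Poisson intervals (counting error only). Ptn and Krtap8-1 are highest in AA+Ab and Isg15 and Irf1 in AA under both counts, while the Neg point of Krt10 and all 3 points of H2-K1 are lower without the mixed sub-cluster.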

How the data were processed

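The authors made Chromium 3' libraries from the skin of each group. They aligned reads to mm10 and counted UMIs with Cell Ranger 7.2.0, per the labels and the submitters' processing notes, which also name FastQC 0.11.7. The deposited matrices give, for each gene and called barcode, whole UMI counts that the authors did not normalize. Strand and multi-mapping options are not given in the sources used here.

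Barcodes with at most 10% mitochondrial UMIs and at least 200 genes were kept. The members, gene lists and named genes were chosen with earlier results of these data known. UMIs of the Krt75 cells were summed per library and divided by their total (CPM). A ratio was formed for genes with at least 10 expected UMIs in the smallest pool at the mean level of the 3 libraries. Each ratio has an exact conditional 95% interval, and 2-fold served as a rule of size in place of a test. Shares have exact binomial (Clopper-Pearson) intervals. Genes are named from the rule, from the gene lists and from the 20 highest within-library ratios to other barcodes (5 CPM added to each level). They are also named from the 10 highest lower bounds and 10 lowest upper bounds of each comparison. A further ranking among genes seen in at least 50% of cells, and the leaving out of the mixed sub-cluster or of each gene's top cell, were chosen after seeing the data. Doublets were scored against 2 simulated doublets per barcode in 20 components and 50 neighbours and taken at 0.8% per 1000 barcodes. They stayed in the main values. Sub-clusters used 2000 variable genes without the genes of the rule, 15 components and a resolution of 0.4. Gene positions come from GENCODE vM21 and promoters from RefSeq. Ratios and intervals were checked on simulated counts. Python 3.11.15, numpy 2.4.6, scipy 1.17.1, pandas 2.3.3, scikit-learn 1.9.0, scanpy 1.11.5, python-igraph 0.11.9 and matplotlib 3.10.9 were used.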

Additional observations from a re-analysis of the deposited data

How the results depend on the processing

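No paired analysis was possible because each group is 1 library, and for the same reason no replicate could be left out. Share and lineage ratios kept their direction under the 6 alternatives tried, except the share of AA against Neg, which was 0.020 (log2) at a mitochondrial limit of 5%. At that limit AA+Ab against Neg moved to 0.88 for the share of barcodes and 1.29 per lineage cell (log2). Counts of genes at least 2-fold apart depended on the treatment of low counts. With 5 CPM added, they were 35 higher and 140 lower in AA against Neg, 43 and 150 in AA+Ab against AA, and 34 and 254 in AA+Ab against Neg. With at least 50 expected UMIs they were 20 and 68, 30 and 129, and 28 and 169. With no filter they were 729 and 1624, 930 and 1483, and 625 and 2150. Without the mixed sub-cluster the lower counts were 202, 245 and 248. In AA+Ab against Neg, 277 were higher with each cell weighted equally and 251 without the top cell of each gene, and the other 5 counts stayed within 1.5 times when top cells were left out.

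The median of the medulla genes moved in AA against Neg to 0.038 (doublets removed) and -0.11 (without the mixed sub-cluster), in AA+Ab against AA to 0.19 (mitochondrial limit of 5%) and 0.46 (equal weights), and in AA+Ab against Neg to 0.29, 0.79 and, without the mixed sub-cluster, 0.27. The MHC class I median moved to 0.70 in AA against Neg and 0.25 in AA+Ab against Neg without the mixed sub-cluster. The dissociation stress median moved in AA against Neg to 0.028 (Krt75 at 3 UMIs), 0.025 (the 5% limit), -0.19 (doublets removed), -0.27 (equal weights) and -0.25 (without the mixed sub-cluster), in AA+Ab against AA to -0.48 (without it), and in AA+Ab against Neg to -0.75 (equal weights) and -0.66 (without it).

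Several values changed sign. In AA against Neg, the stress keratin and alarmin median (-1.03 as counted) became 0.18 with Krt75 at 3 UMIs and 0.46 at the 5% limit, as did Sprr1b at the 5% limit (0.36 without its top cell). Without the mixed sub-cluster, Aldoa became 0.13 (0.00021 with doublets removed), Dct 0.046, Stc1 -0.75, Abi3bp, Fam13a and Adamts9 -1.75, Tnnt3 0.19, Mylpf 0.023, Car3 0.32, Myl1 0.061 and Sgms2 -0.16. With doublets removed, Stc1 became -1.42, Tnnt3 0.32 and Car3 0.39, and without top cells Stc1 and Adamts9 became -1.05 and Fam13a -0.79. In AA+Ab against AA, the epidermal differentiation median became -0.10 with doublets removed and -0.068 without the mixed sub-cluster, Krt10 -0.22 and -0.21, Fam13a 3.33 without the mixed sub-cluster (1.66 without top cells), Adgrl3 0.14 and Adamts9 1.24. In AA+Ab against Neg, without the mixed sub-cluster, the melanocyte median became 0.15, Dct 0.15, Krt14 0.29, Krt15 0.15, Lgr5 1.08, H2-D1 0.41 and Psmb8 0.081, while Stc1 became -1.03 without top cells, Tnnc2 0.039 and Mylpf 0.069 with doublets removed and Pde10a 0.65 at the 5% limit. The cause was not tested. At this depth, a gene under about 10 expected UMIs gives no ratio.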

Other observations

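Other gene lists of the Krt75 cells differed between libraries as follows, with values for AA against Neg, AA+Ab against AA and AA+Ab against Neg. Of 20 S phase genes, 1, 2 and 2 were at least 2-fold lower, with medians of -0.48, -0.10 and -0.57, where 3.6%, 4.28% and 6.09% of all genes were lower. Without the mixed sub-cluster the S phase medians were -0.12, -0.11 and -0.03. Of 19 genes, 0, 3 and 1 were then lower, where 2.09%, 2.54% and 2.57% of all genes were. In AA against Neg 2 were higher, where 2.05% of all genes were. Of 20 G2/M genes, 1 was lower in AA than in Neg (all genes 3.6%). In AA+Ab 1 was higher than in AA (all genes 1.8%) and 1 higher than in Neg (all genes 1.52%). The G2/M medians were -0.27, 0.65 and 0.35, and -0.21, 0.53 and 0.31 without the mixed sub-cluster. Among 16 cell death genes tested, 4 were at least 2-fold lower in AA+Ab than in AA, where 4.28% of all genes were. Without the mixed sub-cluster 1 of 14 was, where 2.54% of all genes were. The p53 target Bbc3 stood at 19.4, 17.3 and 8.14 CPM in Neg, AA and AA+Ab, and at 19.1, 15.3 and 8.75 CPM without that sub-cluster.

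The inner root sheath keratin Krt25, which the rule does not use, was counted at 160, 56.5 and 126 CPM in the Krt75 cells of Neg, AA and AA+Ab. Thinned to 5000 UMIs, 18.1%, 18.8% and 26.6% of Krt75 cells had a UMI of Krt25, against 12.8%, 5.88% and 16.1% of T cells, so that the interval of the Neg share (10.9 to 27.4) included the T cell share. Krt27, another inner root sheath keratin, had a UMI in 30.9%, 29.1% and 46.7% of thinned Krt75 cells against 3.01%, 1.96% and 6.83% of T cells. It stood at 97.5, 107 and 157 CPM in Krt75 cells and at 107, 135 and 124 CPM in the inner root sheath comparator. Krt27 thus does not set that comparator apart from the Krt75 cells, and the name of the comparator rests on Krt71.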
